A study of Saccharomyces cerevisiae with 16 samples.

Results

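The ATG genes of budding yeast encode the proteins of autophagy, the route by which a cell encloses part of its cytoplasm in a double membrane and delivers it to the vacuole for breakdown. Members were all genes of the deposited table whose symbol is ATG followed by a number, and 37 of 6679 genes met this rule. The table itself used the ATG symbol for 25 of them, and the other 12 (ATG31, ATG32, ATG33, ATG34, ATG36, ATG38, ATG39, ATG40, ATG41, ATG42, ATG44 and ATG45) were found through the RefSeq symbol of their locus tag. ATG6 and ATG24 are listed under VPS30 and SNX4 and were handled with the pathway genes that carry other names.

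The study followed SK1 budding yeast, a strain background that sporulates efficiently, after 3 h or 6 h in sporulation medium. One strain was wild type (WT), and the other lacked the DBP1 open reading frame, which had been removed with Cas9 without leaving a marker. DBP1 encodes a DEAD-box RNA helicase related to the translation factor Ded1. Each strain and time gave 2 ribosome footprint libraries and 2 mRNA libraries, 16 in all, with replicates 3 and 4 in WT and 2 and 4 in the deletion. All cells, controls included, received 100 µM cycloheximide for 1 min before harvest. Nothing in the labels ties the replicates to separate cultures. The p-values therefore reflect library-to-library spread alone, and that spread may be technical.

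Autophagy starts with the Atg1 kinase and its scaffold proteins. Vesicles that carry Atg9, together with the lipid transfer protein Atg2, feed the growing membrane, and a phosphatidylinositol 3-kinase complex marks it. A pair of ubiquitin-like systems then attaches Atg8 to membrane lipid, and Atg8 in turn binds receptors that hold particular cargo such as mitochondria, peroxisomes or endoplasmic reticulum. Budding yeast sporulates when it is starved, and mutants that lack core ATG genes sporulate poorly or not at all.

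Depth was 4570737 to 6953168 reads per footprint library and 5629705 to 9126326 per mRNA library. DBP1 itself had 147 to 429 RPKM (reads scaled by gene length and by library total) of footprints in the WT libraries and 0.449 to 1.12 in the deletion, and 32.3 to 161 against 0.409 to 1.25 RPKM of mRNA. The 6 middle sporulation markers, summed, went from 129 to 141 RPKM of footprints in WT at 3 h to 28378 to 28873 at 6 h. The 5 entry markers, summed, went from 7764 to 7999 RPKM down to 3060 to 3222. IME1, REC8, SPO11 and HOP1 fell, while IME2 went the other way, from 1585 and 1626 RPKM to 1830 and 1831. A list of 6 genes of haploid cells summed to 102 to 103 RPKM of footprints in WT at 3 h and 147 to 151 at 6 h. Its mRNA sums were 286 to 321 and 363 to 387. In footprints STE4 rose from 13.0 and 15.8 RPKM to 98.3 and 99.3, and STE3 from 7.59 and 6.10 to 25.4 and 20.5. MFA1, MFA2 and GPA1 were lower at 6 h, and STE2 was at most 0.611. The 4-gene list for dividing cells summed to 21.2 to 21.8 RPKM of footprints in WT at 3 h and 714 to 728 at 6 h. CDC20 alone carried that rise, and the sum of the 3 G1 cyclin genes CLN1, CLN2 and CLN3 was lower at 6 h. The part of these cell states in the results was not tested.

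One mRNA library went against its label. In the library labelled deletion 3 h replicate 2, 34 of 37 ATG genes lay nearer to the WT 6 h mean than to the WT 3 h mean. In replicate 4 of the same group 2 of 37 did. Of the 5291 genes tested in both kinds of library, 4855 and 213 did, so the ATG genes were near the share of all genes. On a scale where the WT 3 h mean is 0 and the WT 6 h mean is 1, replicate 4 stood at 0.0466 over the ATG genes. The library labelled replicate 2 stood at 0.911, or 0.896 over those 5291 genes. DBP1 was at 1.25 RPKM there, as in the other libraries of the deletion. It was left out of every mRNA and footprint-per-mRNA test, its values are given apart, and the single other deletion mRNA library at 3 h was assumed to vary like the other groups. The footprint library with the same label was kept.

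Changes are differences of log2(RPKM + 1), tested with limma, and a gene was called when its p-value, adjusted over all genes tested, was under 0.05. The pseudocount of 1 RPKM makes the change of low genes look smaller. RPKM values are shares of a library, and the median of all genes tested changed in WT from 3 h to 6 h by -0.96 (log2) for footprints, by -1.38 for mRNA and by 0.50 for footprints per mRNA. Calls are therefore also given after each library was rescaled by the median ratio of its genes, which sets those medians near 0. Some are also reported with 1 replicate left out. Such a fit leaves 1 library per group in that strain, so its spread comes from the other strain alone. A call lost there may reflect that spread and is not read as a property of the gene.

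**Figure D1:**
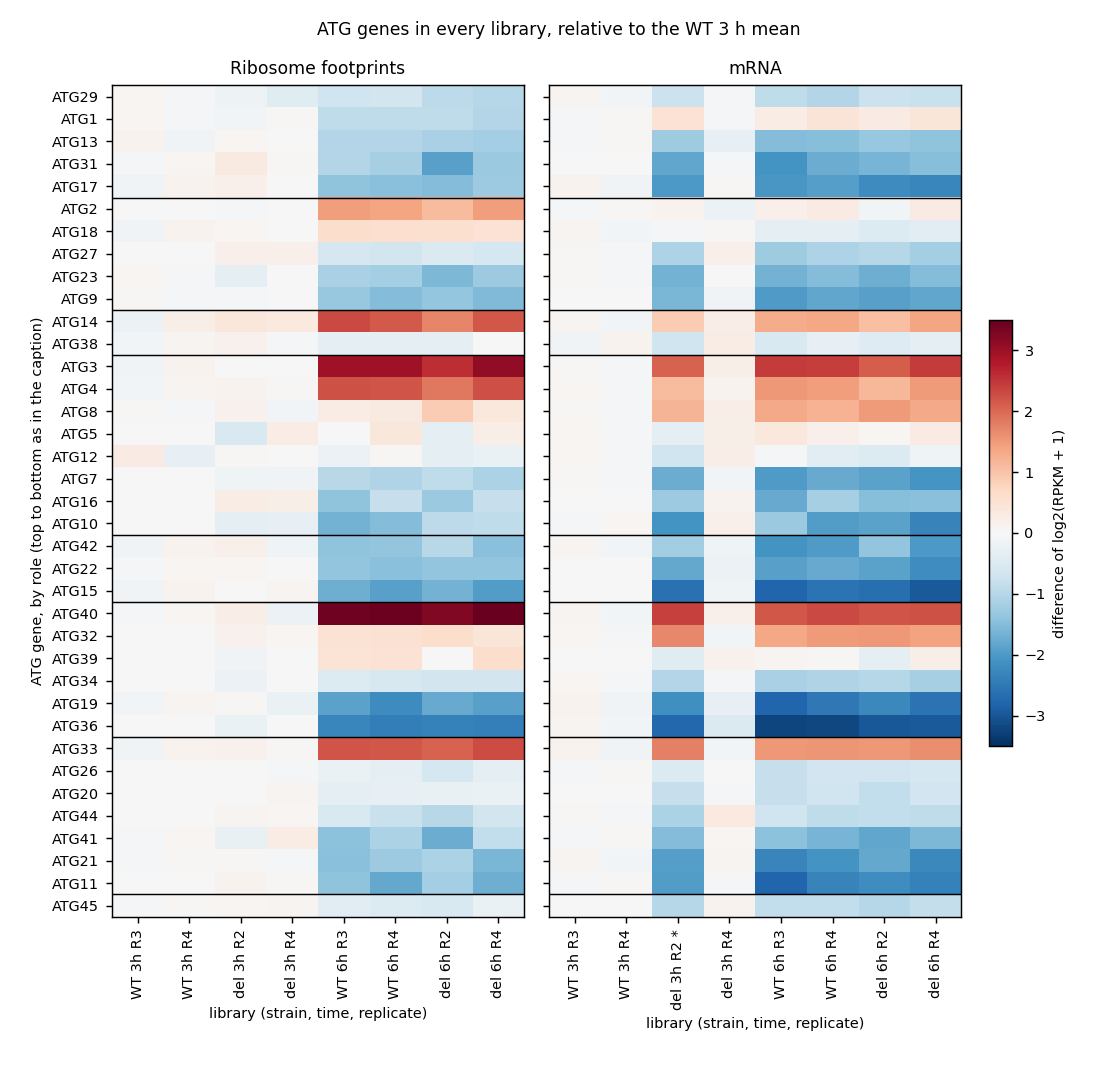
Level of each ATG gene (rows, grouped by role) in each of the 16 libraries (columns), as the difference of log2(RPKM + 1) from the WT 3 h mean of the same kind of library, with red above and blue below. The mRNA column with an asterisk is the library labelled deletion 3 h replicate 2. There 34 of 37 genes lay nearer to the WT 6 h mean, as did 4855 of the 5291 genes tested in both kinds.

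From 3 h to 6 h in WT, footprints of 9 of the 36 ATG genes tested rose, led by ATG40, ATG3, ATG14, ATG4 and ATG33, and 22 fell, led by ATG36, ATG19, ATG15 and ATG11. Of all 5312 genes tested, 20.1% were called higher and 63.3% lower, so the share of ATG genes in each direction was near that of all genes. The median change of the ATG genes was -0.63, and 21 of 36 lay above the median of all genes. After rescaling, 18 were called higher and 7 lower, against 36% and 32.3% of all genes. ATG20, ATG27, ATG34 and ATG45 were lower as RPKM and higher after rescaling, and 11 genes that were lower as RPKM were no longer called.

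In mRNA, 8 of 37 ATG genes rose and 25 fell in WT, against 16.4% and 72.9% of the 5720 genes tested. The median change was -0.97. After rescaling, 19 were higher and 11 lower, against 38.1% and 35.5% of all genes. ATG18, ATG20, ATG26, ATG29, ATG38, ATG44 and ATG45 were lower as RPKM and higher after rescaling. Across the 36 genes with both values, the changes of footprints and of mRNA in WT had a Pearson correlation of 0.93. That correlation is across genes of the same libraries, which share depth and scaling, and is a description without a test.

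**Figure D2:**
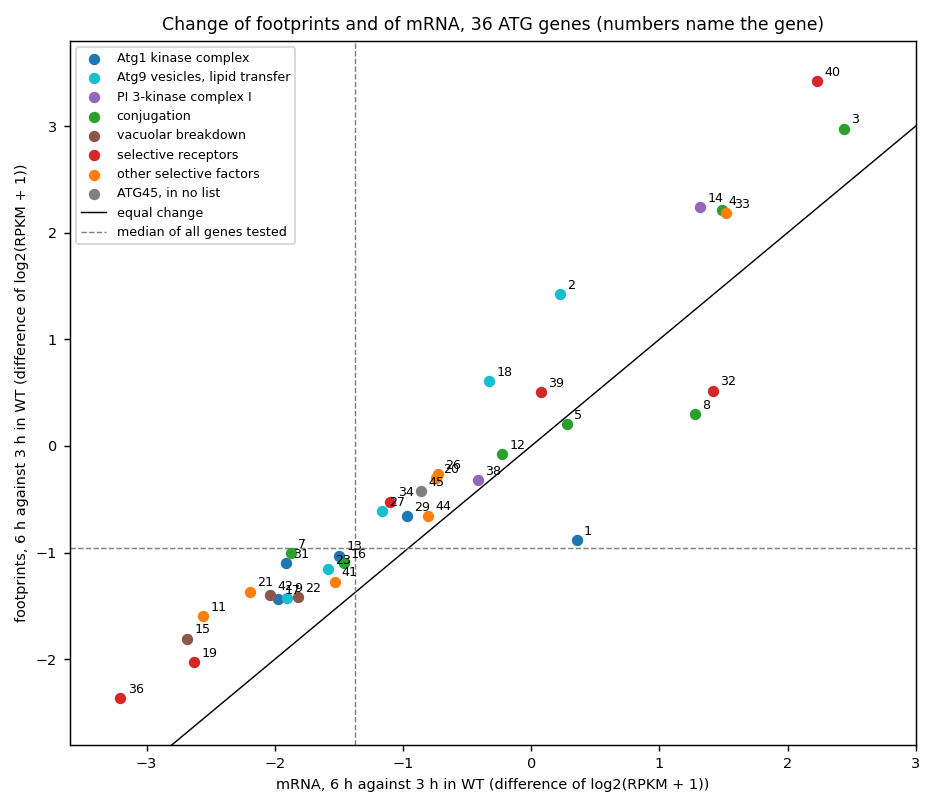
Log2 change from 3 h to 6 h in WT of mRNA (x axis) and of footprints (y axis) for 36 ATG genes, coloured by role, with the line of equal change and dashed lines at the medians of all genes tested (-1.38 and -0.96). ATG40 and ATG3 lie at the upper right and ATG36 at the lower left, and ATG1, ATG8 and ATG32 lie below the line of equal change.

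The core machinery and the cargo receptors were then set side by side. Of 22 core genes tested, 5 rose and 13 fell in footprints, with a median change of -0.77. Of all 5312 genes, 20.1% were called higher and 63.3% lower, with a median of -0.96, so the core shares were near those of all genes. Of the 6 receptors in the list 3 rose and 3 fell, with a median of -0.01. That list leaves out CUE5, a receptor kept with the partner genes, and ATG45, which is in no role list. Both fell as RPKM, by -1.81 and -0.43, so the median depends on which genes the list holds. Among the 7 other factors of selective autophagy 1 rose and 5 fell, with a median of -0.66. In mRNA the medians were -1.17 over 23 core genes, -0.51 over the receptors and -0.81 over the other selective factors. Each was above the all-gene median given earlier. The receptors held the ATG genes with both the largest rise and the largest fall of footprints, ATG40 and ATG36. After rescaling, 10 core genes were higher and 4 lower, and 4 receptors were higher and 2 lower. Among the other selective factors 3 were higher and 1 lower. Of all genes, 36% were then called higher and 32.3% lower. These counts and medians describe the lists, and the difference between them was not tested.

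All 5 genes of the Atg1 kinase complex were called lower in footprint RPKM at 6 h in WT, as were 63.3% of all genes. After rescaling 0 were higher and ATG17 alone was lower, beside 36% and 32.3% of all genes. ATG1 and ATG29 then turned to small positive values. ATG17, the scaffold on which the complex assembles, had 30.0 and 35.8 RPKM of footprints in the WT libraries at 3 h and 11.7 and 11.2 at 6 h, and its deletion libraries had 37.0 and 32.8 against 10.9 and 13. The times did not overlap in either strain, and the WT change was -1.44 ± 0.17 (SE, adjusted p 9e-05). ATG17 mRNA went from 89.7 and 76.0 RPKM to 19.5 and 20.9 in WT, with the library shown apart at 19.8. ATG31, which joins Atg17 and Atg29 in a subcomplex, went from 42.4 and 46.1 RPKM of footprints to 21.0 and 19.2, a change of -1.10 ± 0.22 (adjusted p 0.0016; 0.05492 and not called without WT replicate 4). In the deletion it went from 55.7 and 45.3 to 11.1 and 17.4, so the lowest ATG31 values were those of the deletion at 6 h. ATG13, the regulatory subunit that responds to TORC1, changed by -1.03 ± 0.14. The rescaled ATG17 change was -0.51.

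ATG1, the kinase itself, moved in opposite directions in footprints and mRNA as RPKM. Its footprints were 267 and 242 RPKM in WT at 3 h and 238 and 259 in the deletion, and at 6 h they were 137 in both WT libraries and 137 and 125 in the deletion. Its mRNA was 98.2 and 103 RPKM in WT at 3 h, 95.1 in the deletion and 142 in the library shown apart, and at 6 h it was 121 and 137 in WT and 122 and 135 in the deletion. All 6 h libraries therefore lay below all 3 h libraries in footprints and above the 3 fitted ones in mRNA. The WT change was -0.89 ± 0.12 in footprints (adjusted p 0.00024; 0.083 and not called after rescaling) and 0.35 ± 0.12 in mRNA (adjusted p 0.026). The mRNA call was lost without WT replicate 3 or 4 (adjusted p 0.2299 and 0.3841). ATG29 changed by -0.66 ± 0.14 in WT footprints but by 0.30 after rescaling, and its call was lost without WT replicate 3 (adjusted p 0.1137). It overlaps SET6 in the RefSeq annotation and the counting is not stated to use strand, so its values are uncertain.

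Among the genes for Atg9 vesicles and lipid transfer 2 rose and 3 fell in footprints, beside 20.1% and 63.3% of all genes. After rescaling 3 were higher and 1 lower, beside 36% and 32.3% of all genes. ATG2, which encodes the lipid transfer protein that bridges membranes, had 38.7 and 38.8 RPKM of footprints in WT at 3 h and 110 and 102 at 6 h, with 37.2 and 39.2 against 84.8 and 109 in the deletion. Every 6 h footprint library was above every 3 h library, and the WT change was 1.42 ± 0.15 (adjusted p 5.2e-05). ATG2 mRNA was 30.9 and 32.1 RPKM in WT at 3 h and 35.6 and 38.4 at 6 h, a change of 0.22 ± 0.15 that was not called (adjusted p 0.2; called higher after rescaling). In the deletion ATG2 mRNA was 27.0 RPKM at 3 h and 29.5 and 38.5 at 6 h, and the library shown apart had 34.5.

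ATG9 encodes the membrane protein of the vesicles that seed the autophagosome. It went from 78.8 and 74.2 RPKM of footprints to 29.7 and 26.1 in WT, and from 73.8 and 76.4 to 29.3 and 25.4 in the deletion. Its mRNA went from 82.5 and 81.8 RPKM to 19.9 and 22.4 in WT and was 76.0 against 21.4 and 22.7 in the deletion, with 26.2 in the library shown apart. The times did not overlap in either strain, and ATG9 fell in WT by 1.42 in footprints (SE 0.14, adjusted p 3.7e-05) and by 1.91 in mRNA (SE 0.12), a fall that was also called after rescaling. ATG23 and ATG27, which help Atg9 vesicles form, changed by -1.16 ± 0.17 and -0.61 ± 0.12 in footprints, and after rescaling ATG23 was not called and ATG27 was higher by 0.36. The ATG27 call was lost without WT replicate 3 or 4 (adjusted p 0.06378 and 0.07997). ATG18, the phosphoinositide-binding partner of Atg2, rose by 0.61 ± 0.13 in footprints (adjusted p 0.0027), a call lost without WT replicate 3 (adjusted p 0.1466). Its mRNA changed by -0.33 ± 0.12 as RPKM, called with all libraries but not without WT replicate 3 or 4, and by 1.04 after rescaling.

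ATG14 and ATG38 encode the subunits that are specific to the autophagy form of the phosphatidylinositol 3-kinase. ATG14, which directs the complex to the site of assembly, had 11.2 and 15.4 RPKM of footprints in WT at 3 h and 69.5 and 62.2 at 6 h. The deletion had 17.7 and 16.9 RPKM at 3 h and 45.5 and 62.7 at 6 h. Both strains were higher at 6 h with no overlap, and the WT change was 2.24 ± 0.21 (adjusted p 2.7e-05) against 1.57 ± 0.21 in the deletion (adjusted p 0.00016). ATG14 mRNA went from 58.8 and 50.7 RPKM to 135 and 140 in WT, a change of 1.32 ± 0.14, with 102 in the library shown apart. ATG38 had 36.2 and 41.2 RPKM of footprints at 3 h and 31.0 and 30.3 at 6 h in WT, and its change of -0.32 ± 0.16 was not called (adjusted p 0.097), while after rescaling it was called higher at 0.62.

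**Figure D3:**
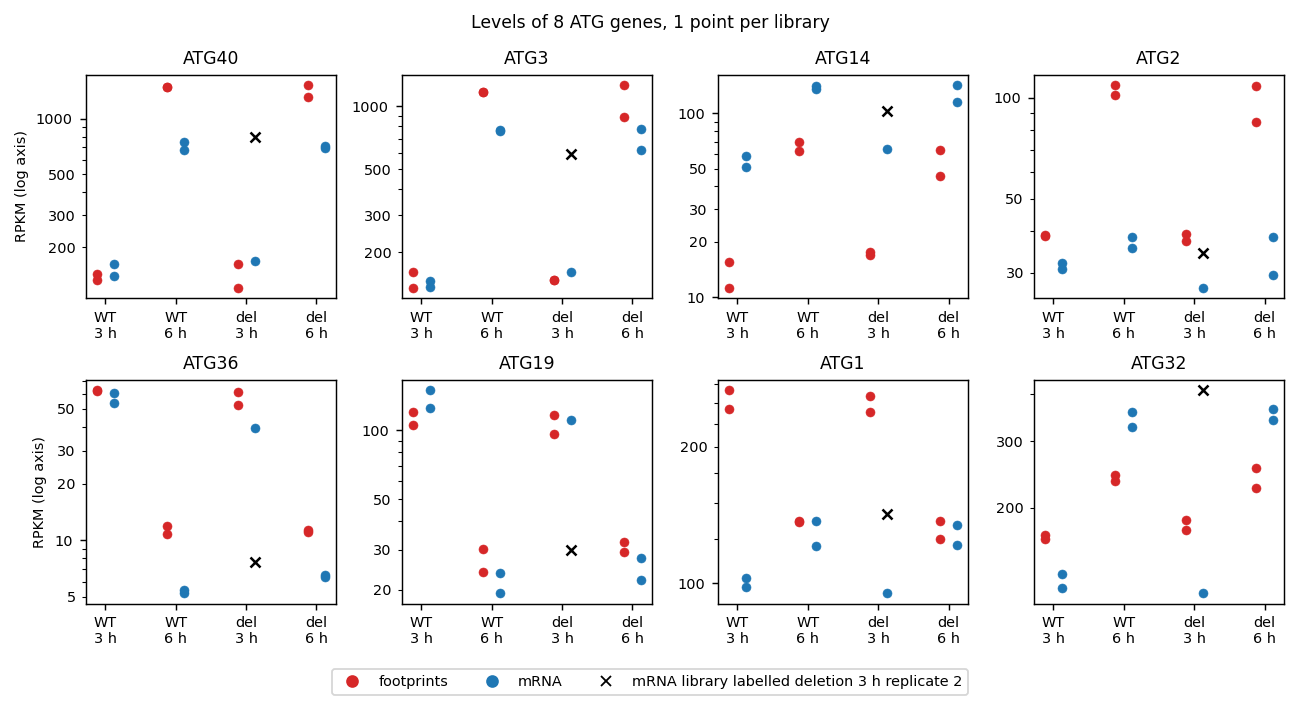
RPKM (log axis, which differs between panels) of 8 ATG genes in each library, with footprints in red, mRNA in blue and the mRNA library labelled deletion 3 h replicate 2 as a black cross. ATG40, ATG3, ATG14 and ATG2 footprints were higher at 6 h in both strains, ATG36 and ATG19 were lower, and ATG1 was lower in footprints while its fitted mRNA values were higher.

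Of the 7 conjugation genes tested in footprints, 2 rose and 2 fell, beside 20.1% and 63.3% of all genes. After rescaling 5 were higher and 0 lower, beside 36% and 32.3% of all genes. ATG3 encodes the enzyme that hands Atg8 to its lipid. Its footprints were 135 and 161 RPKM in WT at 3 h and 147 in both deletion libraries, and at 6 h they were 1163 and 1166 in WT and 888 and 1266 in the deletion. ATG3 mRNA was 145 and 137 RPKM in WT and 161 in the deletion at 3 h, and 770 and 765 in WT and 619 and 779 in the deletion at 6 h, with 593 in the library shown apart. Every 6 h library was above every fitted 3 h library in both readouts, and ATG3 rose in WT by 2.97 ± 0.18 in footprints (adjusted p 3.7e-06) and by 2.44 ± 0.14 in mRNA.

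ATG4 encodes the protease that trims Atg8 and frees it from lipid. It went from 77.1 and 89.6 RPKM of footprints to 391 and 384 in WT and from 89.9 and 84.9 to 304 and 402 in the deletion, and its mRNA from 148 and 135 RPKM to 405 and 389 in WT. Its WT changes were 2.21 ± 0.16 in footprints (adjusted p 8.9e-06) and 1.49 ± 0.15 in mRNA. ATG7, the activating enzyme of both conjugation systems, fell by 1.01 in footprints (SE 0.13, adjusted p 0.00015; not called after rescaling), and ATG16, which holds the Atg12-Atg5 conjugate at the membrane, changed by -1.10 ± 0.23 and was not called after rescaling or without WT replicate 3 (adjusted p 0.07005). ATG5 and ATG12, the members of that conjugate, changed by 0.21 ± 0.30 and -0.08 ± 0.20 in footprints and were not called (adjusted p 0.53 and 0.72), although after rescaling ATG12 was higher at 0.87 and ATG5 was called higher too.

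ATG8, the ubiquitin-like protein that coats the autophagosome, had the highest level of all ATG genes in every group, on the per-length RPKM scale. Its footprints were 2851 and 2691 RPKM in WT and 3064 and 2582 in the deletion at 3 h, and 3348 and 3464 in WT and 5113 and 3589 in the deletion at 6 h. Its mRNA was 2526 and 2344 RPKM in WT and 2843 in the deletion at 3 h, and 6128 and 5687 in WT and 6832 and 6127 in the deletion at 6 h, with 5566 in the library shown apart. In both readouts the 6 h libraries lay above the fitted 3 h libraries, with a wider gap in mRNA. The WT change was 0.30 ± 0.19 in footprints, not called (adjusted p 0.18; called higher after rescaling), and 1.28 ± 0.17 in mRNA (adjusted p 0.00023). ATG10, the conjugating enzyme for Atg12, was the lowest footprint gene, with 7.38 and 7.66 RPKM in WT at 3 h and 1.70 and 1.95 at 6 h, and did not pass the filter on low values in footprints. Its mRNA changed by -1.63 ± 0.27 in WT (adjusted p 0.00073; not called after rescaling).

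The 3 genes for breakdown and export in the vacuole fell in footprints, as did 63.3% of all genes. After rescaling 2 of them were lower, as were 32.3% of all genes. ATG15, the lipase that opens the inner membrane of the delivered body, went from 57.1 and 67.1 RPKM of footprints to 18.2 and 15.8 in WT and from 63.0 and 65.9 to 19.1 and 15.1 in the deletion. Its mRNA went from 56.7 and 55.3 RPKM to 7.38 and 8.42 in WT, with 8.28 in the library shown apart. ATG15 fell in WT by 1.81 in footprints (SE 0.17, adjusted p 2.8e-05) and by 2.68 in mRNA (SE 0.16), with no overlap of the times. ATG42, a vacuolar carboxypeptidase, changed by -1.40 ± 0.20 in footprints and was not called after rescaling. ATG22, a vacuolar exporter of amino acids, had 84.7 and 93.7 RPKM of footprints at 3 h and 33.5 and 31.9 at 6 h in WT, and fell by 1.42 (SE 0.13, adjusted p 2.4e-05). ATG15 and ATG22 were called lower after rescaling too.

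The receptors did not move as 1 group. ATG40, a receptor for the endoplasmic reticulum, had 133 and 144 RPKM of footprints in WT and 163 and 120 in the deletion at 3 h, and 1490 and 1501 in WT and 1317 and 1537 in the deletion at 6 h. Its mRNA was 162 and 139 RPKM in WT and 170 in the deletion at 3 h, and 676 and 746 in WT and 693 and 711 in the deletion at 6 h, with 794 in the library shown apart. No 3 h value of a fitted library came near a 6 h value, and ATG40 rose in WT by 3.42 ± 0.17 in footprints (adjusted p 1.2e-06) and by 2.23 ± 0.13 in mRNA (adjusted p 7.5e-06), the largest footprint rise of the 36 ATG genes.

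ATG39, a receptor for the nuclear envelope, had 590 and 602 RPKM of footprints in WT at 3 h and 837 and 855 at 6 h, and 543 and 600 against 594 and 915 in the deletion. The deletion times overlapped, and the WT change of 0.50 ± 0.20 passed the test narrowly (adjusted p 0.041). That call was lost without WT replicate 3 or 4 (adjusted p 0.2502 and 0.2496) and when the spread was not modelled by level (adjusted p 0.0503). ATG39 mRNA was 708 and 689 RPKM at 3 h and 748 and 723 at 6 h in WT, a change of 0.07 ± 0.19 that was not called (adjusted p 0.72; called higher after rescaling).

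ATG32, the receptor on the outer membrane of mitochondria, had 169 and 165 RPKM of footprints in WT and 185 and 175 in the deletion at 3 h, and 236 and 244 in WT and 254 and 225 in the deletion at 6 h. Its mRNA was 133 and 122 RPKM in WT and 118 in the deletion at 3 h, and 327 and 360 in WT and 366 and 342 in the deletion at 6 h. The times did not overlap in either readout, and the library shown apart had 411 RPKM, above every other mRNA library. ATG32 rose in WT by 0.52 ± 0.12 in footprints (adjusted p 0.004) and by 1.42 ± 0.12 in mRNA (adjusted p 2.3e-05). Its footprint call was lost without WT replicate 3 or 4 (adjusted p 0.1003 and 0.1472).

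ATG36, the receptor for peroxisomes, had the largest fall of footprints of the 36 ATG genes. It had 62.2 and 63.0 RPKM of footprints in WT and 52.7 and 61.5 in the deletion at 3 h, and 11.9 and 10.8 in WT and 11.3 and 11 in the deletion at 6 h. Its mRNA was 60.9 and 53.7 RPKM in WT and 39.7 in the deletion at 3 h, and 5.21 and 5.41 in WT and 6.39 and 6.54 in the deletion at 6 h, with 7.64 in the library shown apart. The 6 h libraries lay well below the fitted 3 h libraries throughout, and ATG36 fell in WT by 2.36 in footprints (SE 0.15, adjusted p 3.9e-06) and by 3.20 in mRNA (SE 0.15).

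ATG19 and ATG34 are neighbours on the chromosome and encode related receptors of the cytoplasm-to-vacuole pathway, which delivers hydrolases to the vacuole. ATG19 had 106 and 121 RPKM of footprints at 3 h and 30.4 and 23.9 at 6 h in WT, and 117 and 96.4 against 32.3 and 29.5 in the deletion. ATG34 had 334 and 341 RPKM at 3 h and 240 and 230 at 6 h in WT, and 295 and 334 against 215 and 217 in the deletion. The times did not overlap for either gene, but ATG19 fell further, by 2.03 in WT (SE 0.17, adjusted p 1.8e-05), than ATG34, at -0.52 ± 0.12 (adjusted p 0.0037), and the rescaled ATG34 change was 0.45. The ATG34 call was lost without WT replicate 3 or 4 (adjusted p 0.09502 and 0.1481). The difference between the pair was not tested. ATG19 mRNA changed by -2.63 ± 0.17 and ATG34 mRNA by -1.10 ± 0.12, or 0.30 after rescaling. If the authors' counting split reads between the related copies, their values would be uncertain.

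Of the other selective factors, ATG33 alone rose as RPKM, while ATG20 and ATG26 were also higher after rescaling. It encodes an outer-membrane protein of mitochondria needed for full mitophagy, and its footprints went from 490 and 583 RPKM to 2440 and 2415 in WT and from 588 and 547 to 2240 and 2609 in the deletion. Its mRNA went from 376 and 322 RPKM to 991 and 1014 in WT, with 1184 in the library shown apart. The ATG33 changes in WT were 2.18 ± 0.15 in footprints (adjusted p 6.1e-06) and 1.52 ± 0.13 in mRNA. ATG11, the scaffold that gathers receptors with the Atg1 kinase, went from 40.3 and 39.4 RPKM of footprints to 14.3 and 10.9 in WT and from 43.3 and 41.3 to 17 and 11.4 in the deletion. ATG11 fell in WT by 1.60 in footprints (SE 0.21, adjusted p 0.00017) and by 2.56 in mRNA (SE 0.18), and after rescaling it was still called lower.

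ATG44, a protein of mitochondrial division in mitophagy, had 516 and 518 RPKM of footprints at 3 h and 354 and 303 at 6 h in WT, a change of -0.66 ± 0.15 (adjusted p 0.0035) that was 0.32 and not called after rescaling. It was not called without WT replicate 3 or 4 either (adjusted p 0.05084 and 0.1337). ATG41, known for a role with Atg9 in starvation, had 54.1 and 60.0 RPKM at 3 h and 20.4 and 25.9 at 6 h in WT, a change of -1.27 ± 0.30 (adjusted p 0.0039; not called after rescaling or, at 0.0641, without WT replicate 3). ATG21, a phosphoinositide-binding protein, changed by -1.37 ± 0.18 and was not called after rescaling, and ATG20, a sorting nexin, by -0.30 ± 0.12 (0.65 after rescaling; adjusted p 0.36 and 0.3059 without WT replicate 3 or 4). ATG26, a sterol glucosyltransferase, changed by -0.27 ± 0.15 and was not called (adjusted p 0.13; called higher at 0.67 after rescaling). ATG45, which is in none of the role lists, had 624 and 654 RPKM of footprints at 3 h and 490 and 460 at 6 h in WT, a change of -0.43 ± 0.14 as RPKM and 0.55 after rescaling. Without WT replicate 3 or 4 the ATG45 change was not called (adjusted p 0.1584 and 0.315).

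Footprints per mRNA, the ratio of the 2 RPKM values, were tested in 1 model, by subtracting the change of mRNA from that of footprints. In WT 17 of 36 ATG genes had a higher ratio at 6 h and 3 had a lower one, against 30.2% and 2.48% of the 5291 genes tested. The median change was 0.51, beside 0.50 over all genes, and after rescaling limma called 0 higher and 3 lower, against 2.14% and 3.25% of all genes. Without adjustment 9 ATG genes had a limma p under 0.05 after rescaling. The share of all genes at that cut-off is not given here, so this count is not read as a result. The 3 lower genes were ATG1, ATG8 and ATG32 on both scales.

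The ATG1 ratio was 2.72 and 2.36 in WT and 2.72 in the deletion at 3 h, and 1.14 and 0.997 in WT and 1.13 and 0.930 in the deletion at 6 h. The ATG32 ratio was 1.27 and 1.35 in WT and 1.48 in the deletion at 3 h, and 0.720 and 0.680 in WT and 0.696 and 0.659 in the deletion at 6 h. The ATG8 ratio was 1.13 and 1.15 in WT and 0.908 in the deletion at 3 h, and 0.546 and 0.609 in WT and 0.748 and 0.586 in the deletion at 6 h. For all 3 genes every 6 h sample lay below every 3 h sample, while the median ratio of all genes went from 0.718 to 0.767 in the 3 samples at 3 h up to 0.970 to 1.04 at 6 h. Among the 5291 genes, the ATG1 ratio in WT went from the 98.9 percentile to the 53.2, ATG32 from the 88.1 to the 24.4 and ATG8 from the 81.6 to the 16.0.

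The change of footprints per mRNA in WT was -1.24 ± 0.16 for ATG1 (adjusted p 0.00083), -0.90 ± 0.15 for ATG32 (adjusted p 0.0034) and -0.98 ± 0.25 for ATG8 (adjusted p 0.015). In the deletion it was -1.34 ± 0.18 for ATG1 (adjusted p 0.0013), -1.16 ± 0.17 for ATG32 (adjusted p 0.0023) and -0.58 ± 0.28 for ATG8, which was not called (adjusted p 0.15). The WT calls were lost when WT replicate 3 or 4 was left out. The changes were then -1.23 and -1.25 for ATG1, -0.99 and -0.81 for ATG32 and -0.91 and -1.05 for ATG8. WT had 1 library of each kind per time in those fits, so the spread came from the deletion libraries alone. The WT calls were also lost with the library shown apart put back, with an adjusted p of 0.1409 for ATG1, 0.6389 for ATG32 and 0.5242 for ATG8. The WT changes themselves are the same numbers in that fit, because a deletion library enters them only through the shared spread. The direction stayed negative in each of these fits.

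**Figure D4:**
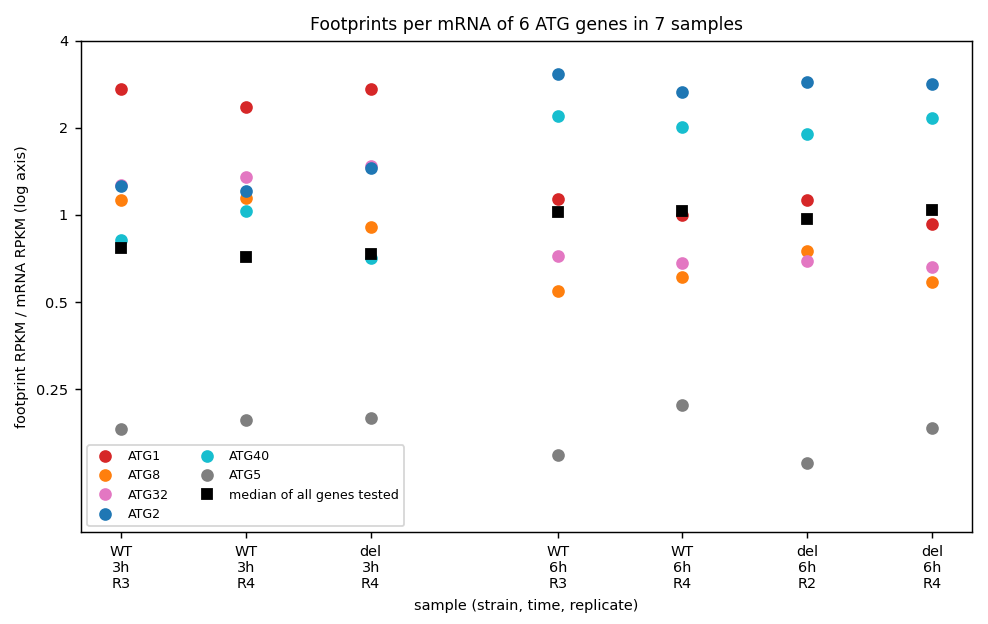
Footprint RPKM divided by mRNA RPKM (log axis) for 6 ATG genes and for the median of all genes tested (black squares), in the 7 samples whose mRNA library was fitted. ATG1, ATG8 and ATG32 were lower in each 6 h sample than in each 3 h sample, ATG2 and ATG40 were higher, and ATG5 stayed between 0.139 and 0.220.

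ATG2 and ATG40 had the largest rises of footprints per mRNA among the ATG genes. The ATG2 ratio was 1.25 and 1.21 in WT and 1.45 in the deletion at 3 h, and 3.08 and 2.66 in WT and 2.88 and 2.83 in the deletion at 6 h, a WT change of 1.20 ± 0.21 (adjusted p 0.0038). The ATG40 ratio was 0.820 and 1.04 in WT and 0.709 in the deletion at 3 h, and 2.20 and 2.01 in WT and 1.90 and 2.16 in the deletion at 6 h, a WT change of 1.19 ± 0.22 (adjusted p 0.004). Without WT replicate 3 or 4 neither was called, at changes of 1.12 and 1.28 for ATG2 and 0.96 and 1.42 for ATG40. Neither was called after rescaling, nor with the library shown apart put back (adjusted p 0.1509 for ATG2 and 0.615 for ATG40). With that library put back the WT changes of ATG2 and ATG40 stayed the same, and only the shared spread differed. The ATG5 ratio was low at both times, 0.182 and 0.195 in WT at 3 h and 0.148 and 0.220 at 6 h. It stood at the 3.14 and 1.57 percentiles of all genes. Its change of -0.07 ± 0.36 was not called (adjusted p 0.89).

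Pathway genes with other names were read from 4 lists. Of 10 partner genes 3 rose and 6 fell in WT footprints, where 20.1% of all genes were called higher and 63.3% lower. HRR25, a casein kinase that phosphorylates receptors, rose by 3.20 ± 0.14 (adjusted p 5e-07), YPT1, a Rab GTPase of early autophagy, rose by 1.93 ± 0.14, and CUE5, a receptor for ubiquitinated aggregates, fell by 1.81 (SE 0.14). VPS30, which is Atg6, changed by -1.19 in footprints and by -2.25 in mRNA. Of 4 cargo genes of the cytoplasm-to-vacuole pathway 0 rose and 3 fell, namely LAP3 at -1.68, APE1 at -1.29 and APE4 at -1.10.

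Of 4 vacuolar hydrolases 0 rose and 2 fell in WT footprints, PRB1 at -1.97 and CPS1 at -1.74. PEP4, the proteinase that activates the others, changed by -0.37 in footprints and was not called, and by 1.10 in mRNA (its footprints were higher by 0.61 after rescaling). Its ratio of footprints to mRNA was 1.65 and 2.09 in WT at 3 h and 0.682 and 0.666 at 6 h, a change of -1.46 (adjusted p 0.0064), in the same direction as ATG1, ATG8 and ATG32. Of 11 regulators 2 rose and 9 fell. PHO23 and RPH1, which repress ATG genes, changed by -1.68 and -1.67, and NPR2, of a complex that restrains TORC1, by -1.44. IML1, of the same complex as Npr2 and chosen after its values were seen, had a ratio of 0.145 and 0.154 in WT at 3 h and 0.962 and 0.972 at 6 h, a change of 2.56 (adjusted p 2.8e-05), as its footprints rose by 1.16 and its mRNA changed by -1.40. After rescaling, 5 partners were higher and 2 lower, 1 cargo gene was higher and 1 lower, 2 hydrolases were higher and 2 lower, and 3 regulators were higher and 4 lower, against 36% and 32.3% of all genes. APE1, APE4 and VPS30 were then not called in footprints.

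The change from 3 h to 6 h was also tested in the deletion. Its footprints were called higher for 9 and lower for 22 of 36 ATG genes, against 19.3% and 65.1% of all genes. Its mRNA was called higher for 8 and lower for 26 of 37, against 14.8% and 71.9%, and footprints per mRNA for 6 and 2 of 36, against 17.2% and 1.8%. In footprints 8 genes were higher in both strains and 21 lower in both. The share of all genes called in both strains was not counted, and in WT 20.1% were called higher and 63.3% lower. ATG39 was called higher in WT alone and ATG8 in the deletion alone, where it rose by 0.61 ± 0.19 (adjusted p 0.018), and ATG20 and ATG26 were each called lower in 1 strain. These single-strain calls do not show a difference between the strains, and the test of the difference itself called 0 ATG genes.

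Side by side, the footprint changes in WT and in the deletion were 3.42 and 3.34 for ATG40, 2.97 and 2.84 for ATG3, 2.21 and 1.99 for ATG4 and 2.18 and 2.09 for ATG33. They were -2.36 and -2.25 for ATG36, -2.03 and -1.75 for ATG19, -1.81 and -1.86 for ATG15 and -1.42 and -1.43 for ATG9. The widest gaps were those of ATG31, at -1.10 in WT and -1.78 in the deletion, and of ATG14, at 2.24 and 1.57. ATG31 had 34 to 59 footprint reads per library at 6 h.

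The strains were compared at each time, over the mean of both times and in the difference of the time change, for footprints, mRNA and footprints per mRNA. In these 12 comparisons limma called 0 ATG genes, with adjusted p-values from 0.93 to 1, and limma-voom on the recovered reads also called 0. In footprints, 0.0377% of all genes were called at 3 h, 0.0565% at 6 h, 0.0377% over both times and 0% in the difference. In mRNA the shares were 0.0175%, 0.035%, 0.0175% and 0%, and in footprints per mRNA 0.0189%, 0.0189%, 0.0378% and 0%. The number of ATG genes at an unadjusted p under 0.05 was 0, 0, 1 and 0 for footprints, 1, 0, 0 and 1 for mRNA and 0, 2, 1 and 3 for footprints per mRNA, in the same order. The share of all genes at that cut-off is not given here, so these counts are not read as results.

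ATG29, ATG31 and ATG36 had the smallest unadjusted p-values. ATG29 footprints had 87.8 and 79.6 RPKM in WT and 73.5 and 61.5 in the deletion at 3 h, and 51.6 and 53.6 against 44.2 and 41.1 at 6 h. The deletion was below WT at both times, and the mean difference was -0.30 ± 0.10 (unadjusted p 0.0161, adjusted p near 1). Its difference in footprints per mRNA was -0.38 over both times (unadjusted p 0.0155). The ATG31 difference in footprints per mRNA at 6 h was -0.84 ± 0.28 (unadjusted p 0.0128). It rests on few footprint reads at 6 h, 59 and 47 in WT and 34 and 46 in the deletion. The ATG36 mRNA difference at 3 h, with 1 fitted deletion library, was -0.51 ± 0.18 (unadjusted p 0.0266), and its time change differed by 0.76 ± 0.24 (unadjusted p 0.0154). The differences between the time changes of footprints per mRNA were -1.09 for ATG31, -0.58 for ATG13 and -0.64 for ATG36.

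The remaining genes of smallest p had these differences of deletion minus WT. In footprints they were 0.37 for ATG14 and 0.17 for ATG27 at 3 h, -0.50 for ATG31 and 0.33 for ATG8 at 6 h, and -0.22 for ATG23 and 0.11 for ATG27 over both times. In mRNA they were 0.33 for ATG44 and -0.28 for ATG13 at 3 h, 0.34 for ATG31, -0.26 for ATG17 and -0.48 for ATG10 at 6 h, and -0.21 for ATG22, -0.17 for ATG2 and 0.13 for ATG44 over both times. None of these passed the test.

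The intervals give the sizes of difference that these libraries leave possible. Over the mean of both times, the 95% intervals of the deletion against WT in footprints lay between -0.68 and 0.52 (log2) for all 36 ATG genes, and in mRNA between -0.66 and 0.50 for 37. At 3 h alone the footprint intervals reached from -0.81 to 0.84, and at 6 h from -0.999 to 0.78. For footprints per mRNA over both times they reached from -0.84 to 0.65. These are the outermost bounds over the genes, and the median half-width of a gene's own interval was 0.26 in footprints and in mRNA over both times.

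**Figure D5:**
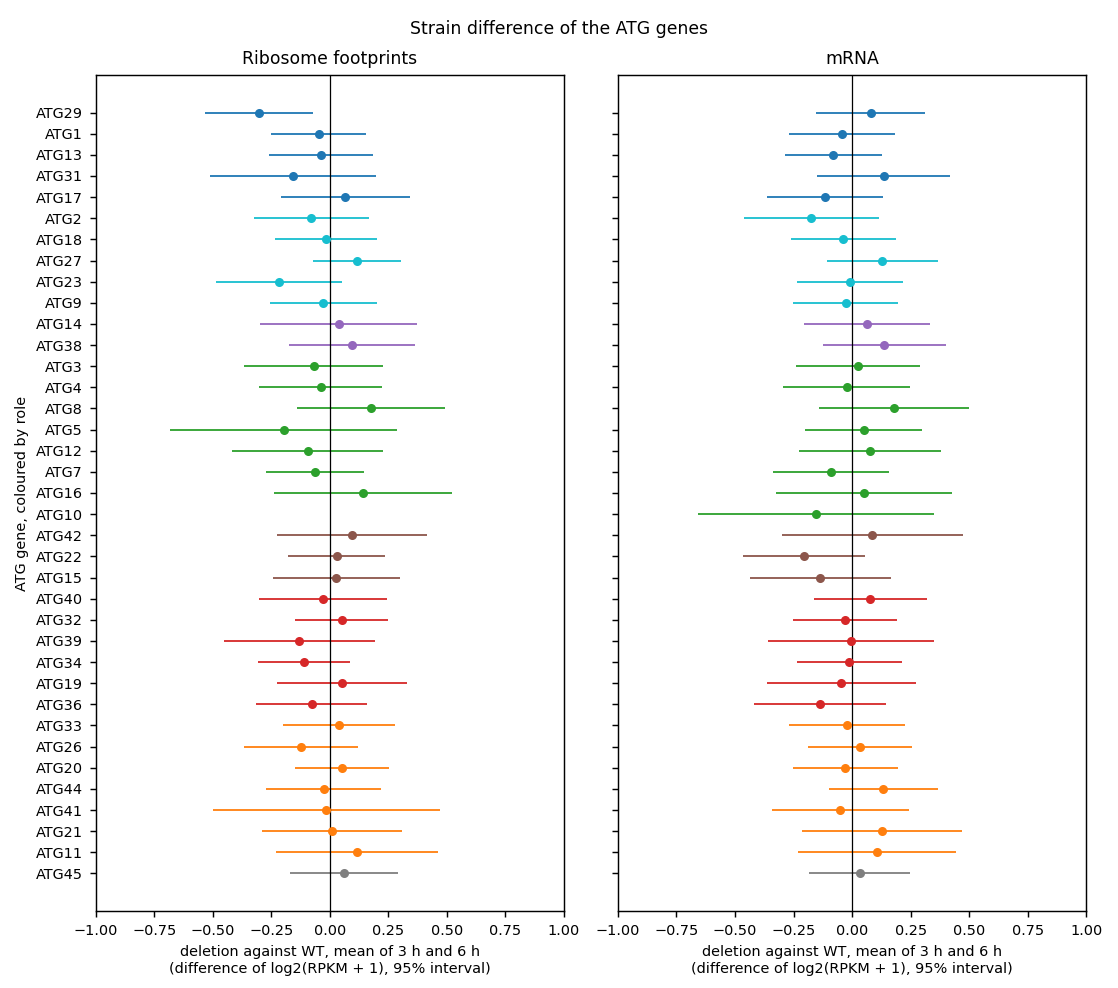
Log2 difference of the deletion from WT, over the mean of both times, for footprints and mRNA of each ATG gene, with 95% intervals from limma. All 36 footprint intervals lie between -0.68 and 0.52, and no gene passed the adjusted threshold.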

How the data were processed

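Per the labels' protocols, SK1 yeast gave footprints selected at 28 to 31 nt and mRNA fragmented to 50 nt. The authors deposited 1 table of RPKM values with a column for each of 16 libraries without pooling replicates. Per the submitters' processing notes, Bowtie2, CASAVA and bcl2fastq 2.17 were used, in roles left unstated. How reads were counted, with or without strand, on which build and annotation, is not given in the sources used here. Symbols and gene neighbours came from RefSeq (assembly R64), whose locus tags matched 5994 of 6679 IDs.

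From the deposited RPKM values, log2(RPKM + 1) was fitted with limma 3.58.1 in R 4.3.3 on group means, with eBayes and a trend, after genes averaging under 5 RPKM were dropped. P-values were adjusted by Benjamini-Hochberg over all genes tested, at a threshold of 0.05. Footprints per mRNA were the difference of both changes in 1 model. Whole reads were recovered within 0.02 of a read for all 6083 genes with footprint reads and all 6347 with mRNA reads. They gave the depths, which cover counting error only, and an alternative with limma-voom. The scripts were tested on simulated data. Replicates differed by more than sampling noise in every group, so each library counts once. The mean chi-square between footprint replicates was 12.1 at 3 h and 3.76 at 6 h in WT, and 54.0 and 40.9 in the deletion. In mRNA at 6 h it was 5.52 in WT and 24.3 in the deletion. The fit gives all groups 1 spread although the deletion replicates differed more.

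The members, the role lists and the lists of other pathway genes were chosen with earlier results of these data known. Values by sample are given for ATG1, ATG8, ATG9, ATG41, the receptors, several selective factors and the 2 genes of each role with the largest WT footprint change. Of each pathway list the 3 largest changes are named, and of each strain comparison the 3 genes of smallest p. Alternatives were another pseudocount, no filter, no trend, rescaling by the median ratio, limma-voom, a replicate block, the library shown apart put back, and each replicate left out.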

Additional observations from a re-analysis of the deposited data

Results flagged for a closer look

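The mRNA library labelled deletion 3 h replicate 2 entered no test. In it 34 of 37 ATG genes lay nearer to the WT 6 h mean than to the WT 3 h mean. So did 4855 of the 5291 genes tested in both kinds in that library. A chi-square comparison of recovered reads averaged 12.2 per gene between it and deletion 6 h replicate 2, 28.8 and 36.1 against the WT 6 h libraries, 36.1 against deletion 6 h replicate 4, and 933 to 1141 against the 3 fitted mRNA libraries of 3 h.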

How the results depend on the processing

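After rescaling by the median ratio, ATG genes called higher and lower became 18 and 7 in WT footprints, 17 and 8 in deletion footprints, 19 and 11 in WT mRNA and 17 and 9 in deletion mRNA, and 0 were called higher for footprints per mRNA in either strain. In WT it turned the sign of 10 of 36 footprint changes, of 10 of 37 mRNA changes and of 11 of 36 changes per mRNA, and in the deletion of 11, 13 and 11. In WT footprints these were ATG12 (0.87), ATG20 (0.65), ATG1 (0.083), ATG45 (0.55), ATG44 (0.32), ATG27 (0.36), ATG26 (0.67), ATG38 (0.62), ATG34 (0.45) and ATG29 (0.30), and in deletion footprints they included ATG1 (0.072), ATG45 (0.53), ATG44 (0.11), ATG38 (0.76) and ATG34 (0.45). In WT mRNA they were ATG12 (1.16), ATG20 (0.64), ATG18 (1.04), ATG45 (0.54), ATG44 (0.59), ATG27 (0.22), ATG26 (0.64), ATG38 (0.96), ATG34 (0.30) and ATG29 (0.40), in deletion mRNA they included ATG45 (0.33), ATG44 (0.18), ATG38 (0.71), ATG39 (1.17) and ATG34 (0.34), and in WT footprints per mRNA ATG20 (-0.00010), the only one of its 11 called on either scale. The rescaling divides every RPKM value of a library by 1 factor before the pseudocount is added, so low genes shift somewhat less than high ones. With the library shown apart put back, 4 ATG genes were higher in WT mRNA, 0 higher and 0 lower in deletion mRNA, and 0 in either direction for footprints per mRNA in both strains, where ATG17 turned to -0.23 in the deletion (the cause was not tested). The WT changes are the same numbers in that fit, where only the spread shared by the groups differs. Limma-voom called 10 higher for deletion footprints per mRNA, and the cause was not tested. Except for WT after rescaling, the share of all genes called under these alternatives is not given here. Their ATG counts are therefore not read as results about the ATG genes.

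Leaving out 1 replicate gave 6 to 10 higher and 14 to 23 lower in WT footprints, the 14 without WT replicate 3, 7 to 10 and 20 to 23 in deletion footprints, 7 to 9 and 21 to 25 in WT mRNA, and 7 to 9 and 23 to 25 in deletion mRNA. For footprints per mRNA it gave 0 to 25 higher and 0 to 3 lower in WT, with 0 in both directions without WT replicate 3 and without replicate 4, and 0 to 12 higher and 1 to 3 lower in the deletion. Without deletion replicate 4 no fitted deletion mRNA library of 3 h is left, so those contrasts have no value. With a replicate left out, the spread comes from the other strain alone, and the share of all genes called is not given here. These counts therefore do not set the ATG genes apart from the rest. In the strain comparisons 0 ATG genes were called under every alternative run. Calls kept under every alternative in WT were 6 of 9 higher and 7 of 22 lower footprint genes, 4 of 8 and 11 of 25 mRNA genes, and 0 of 17 and 0 of 3 for footprints per mRNA. Direction and side of the threshold were kept by 211 results with a pseudocount of 5 RPKM, where 3 became called, by 212 without the filter, where 2 lost the call, and by 208 without the trend, where 6 did.

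WT and the deletion share only replicate number 4, so the replicate block pairs times within a strain. Same-numbered libraries deviated together with correlations of -0.04 in WT footprints, 0.24 in deletion footprints and 0.03 in WT mRNA, and footprints and mRNA of the same sample with -0.34 in WT at 3 h, -0.17 in WT at 6 h and 0.67 in the deletion at 6 h. These differ in sign, so the numbers were not taken to pair the libraries in the main tests. The main test of footprints per mRNA treated both kinds as independent, which may not hold in the deletion at 6 h. The ratios printed by sample do divide libraries of the same sample number. With the block, ATG counts higher and lower were 9 and 21 in WT footprints, 9 and 25 in WT mRNA and 18 and 3 for WT footprints per mRNA. In the deletion they were 9 and 22, 9 and 26, and 7 and 2. The share of all genes called with the block is not given here.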
